A study of Rattus norvegicus with 10 samples.

Results

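Conjugation genes were followed in rat liver after RG3487, a compound known to act on the nicotinic receptor of the alpha7 type and on the serotonin receptor of type 3. A list of 9 genes was used, made up of the UDP-glucuronosyltransferases Ugt2b1, Ugt2b17, Ugt2b37 and Ugt1a6, the UDP-glucuronate enzyme Ugdh, the sulfotransferases Sult1a1, Sult1b1 and Sult1e1, and the methyltransferase Tpmt. A gene entered when the platform annotation gave it a probe set of its own. This left 6 genes with 1 probe set each, of 9378 genes so represented on the array: Ugt2b1, Ugdh, Sult1a1, Sult1b1, Sult1e1 and Tpmt. Ugt2b17 and Ugt2b37 had no such probe set under these symbols, and Ugt1a6 was read only by 2 probe sets that 8 Ugt1a genes share. RefSeq gives Ugt2b17 as an older name of both Ugt2b1 and Ugt2b15, so the listed gene may be read by the probe set of either.

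The 5 livers of the RG3487 group came from rats given 180 mg/kg by gavage, and the 5 livers of the vehicle group from rats given deionized water, both in 5 ml/kg. All were CRL:WI (Han) rats of 6 to 8 weeks, killed under pentobarbital anaesthesia, and liver was sampled from the left lateral lobe of each. The sample labels state 24 h after dosing and the series text 2 h, and 24 h is taken as the time here. Rats were caged in groups of 5, and which animals shared a cage is not given in the labels.

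Conjugation is the step of drug metabolism in which a polar group is joined to a lipophilic molecule, which can then leave through bile or urine. UDP-glucuronosyltransferases (UGTs) sit in the endoplasmic reticulum and transfer glucuronic acid from UDP-glucuronate, which UGDH makes in the cytosol from UDP-glucose. Cytosolic sulfotransferases (SULTs) transfer sulfate from the donor PAPS to phenols, steroids and thyroid hormone. TPMT methylates aromatic thiols such as the thiopurine drugs, with S-adenosylmethionine as the donor. Several UGT genes are known to be induced through the Ah receptor, through CAR and PXR, or through NRF2.

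Each array gave 1 MAS5 signal per probe set on a linear scale. The mean signal per array lay between 329.965 and 331.756, so the deposited arrays had been brought to a common mean. Changes are differences of log2(signal + 16), RG3487 minus vehicle, with the standard error (SE) of limma's fit over 11894 probe sets, and the threshold was a Benjamini-Hochberg adjusted p under 0.05. Over all of them 27.7% passed, 20.5% higher and 7.16% lower with RG3487. The split of 2443 higher and 852 lower calls depended on the scaling, with 1425 and 1195 after quantile normalization, 1359 and 1335 when arrays were centred on their median, and 6158 and 378 when they were scaled to the added hybridization controls. Signals of different probe sets are not comparable as levels, so no member is ranked against another by level. In liver tissue, fewer cells of a type and less RNA per cell cannot be told apart.

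Of the 6 member probe sets, 2 rose with RG3487 and 0 fell by this test, against 27.7% passing over all probe sets. Those that rose were Ugt2b1, 2.09-fold, and Ugdh, 1.42-fold, a UGT and the enzyme that makes the UGT co-substrate. Neither the 3 sulfotransferases nor Tpmt passed. All 6 probe sets passed the filter on dim signals. The plot of signals by liver shows the spread behind each of these values.

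**Figure D1:**
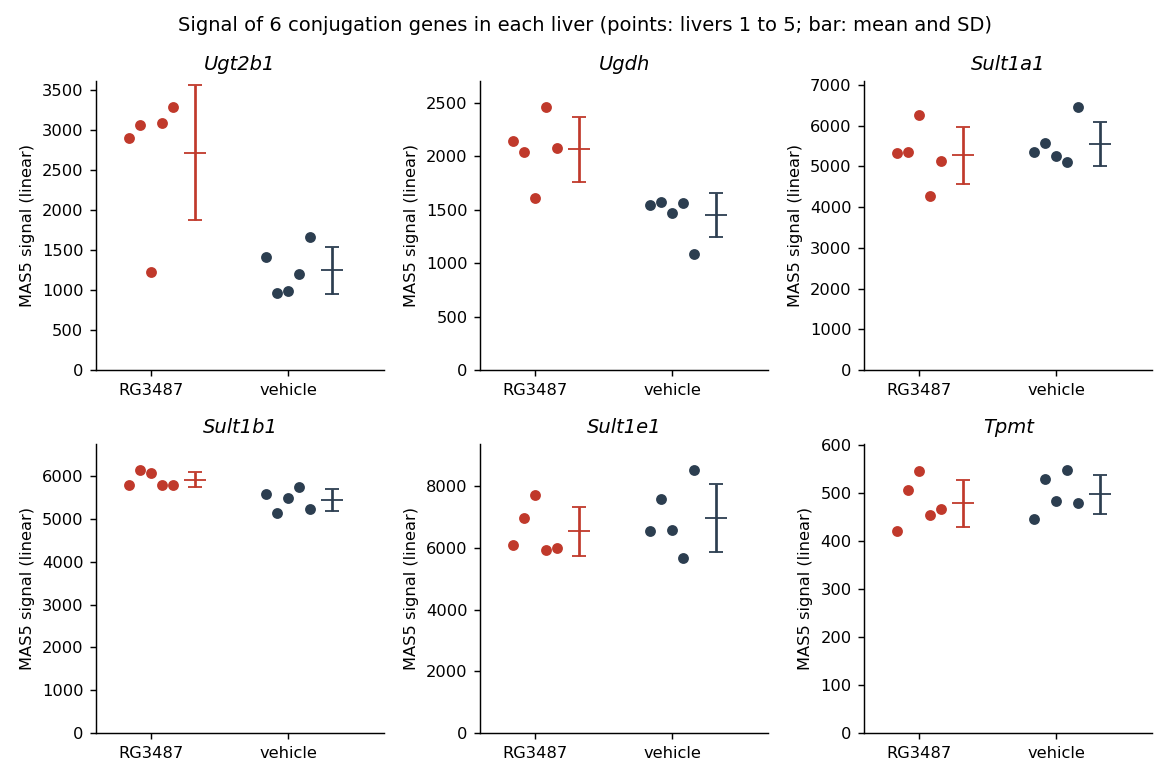
MAS5 signal (linear, vertical axis from 0) of the 6 members in each of 5 RG3487 livers (red, left) and 5 vehicle livers (dark, right), with mean and SD beside the points. For Ugt2b1, 4 RG3487 livers lay between 2908 and 3286 and RG3487 liver 3 at 1233, while vehicle livers lay between 966 and 1659.

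Ugt2b1 encodes a UGT of rat liver that glucuronidates steroids, phenols and morphine-like drugs. Its signal was 2908, 3069, 1233, 3094 and 3286 in RG3487 livers 1 to 5, against 1419, 966, 994, 1199 and 1659 in vehicle livers 1 to 5. RG3487 liver 3 stood inside the vehicle range, and the other RG3487 livers were all above it. The mean was 2718 ± 841 with RG3487 and 1247 ± 294 with vehicle (SD, n = 5 each). The log2 change was 1.06 ± 0.25 SE, with a 95% interval of 0.53 to 1.60 (limma adjusted p = 0.00792), and the exact two-sided permutation p over the 252 regroupings of the animals was 0.0238. Without RG3487 liver 3 the log2 change was 1.33. A change of at least 0.5 on this scale, in either direction, was found in 6.89% of all probe sets.

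Ugdh encodes UDP-glucose dehydrogenase, which oxidises UDP-glucose to UDP-glucuronate. Its signal was 2142, 2043, 1616, 2460 and 2075 in RG3487 livers 1 to 5, against 1549, 1575, 1475, 1561 and 1087 in vehicle livers 1 to 5. The groups did not overlap, but the lowest RG3487 liver, again liver 3, lay close to the highest vehicle liver. The mean was 2067 ± 302 with RG3487 and 1449 ± 206 with vehicle (SD, n = 5 each). The log2 change was 0.51 ± 0.12 SE (limma adjusted p = 0.00847), and the exact permutation p was 0.00794, the smallest that 5 animals against 5 can give. Vehicle liver 5, the lowest of all, stood apart from the other vehicle livers, and without it the change was 0.41.

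The sequence just upstream of both genes is shown because these are the members that rose, with those of Sult1a1 and Tpmt as members that did not pass, 1 without and 1 with a match. The bases are RefSeq's for GRCr8, 5′ to 3′ on the strand of the gene, and stop at the annotated gene start. Ugt2b1 is on the plus strand at chr14:21378632-21378881, Ugdh on the plus strand at chr14:43202268-43202479, Sult1a1 on the minus strand at chr1:190706113-190706362 and Tpmt on the plus strand at chr17:17850176-17850307. Capitals mark matches to GCGTG, the core of the element bound by the Ah receptor, or to TGACNNNGC, the core of the element bound by NRF2, searched on both strands.
Ugt2b1: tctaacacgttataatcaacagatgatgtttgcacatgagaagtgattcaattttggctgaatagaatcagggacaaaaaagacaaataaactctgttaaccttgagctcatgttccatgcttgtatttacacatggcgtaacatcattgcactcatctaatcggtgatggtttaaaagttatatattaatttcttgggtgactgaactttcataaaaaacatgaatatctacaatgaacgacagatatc
Ugdh: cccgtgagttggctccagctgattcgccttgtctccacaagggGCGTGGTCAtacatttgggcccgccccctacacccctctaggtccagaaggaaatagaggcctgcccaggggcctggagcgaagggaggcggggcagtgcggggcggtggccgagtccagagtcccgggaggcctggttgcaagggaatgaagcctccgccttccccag
Sult1a1: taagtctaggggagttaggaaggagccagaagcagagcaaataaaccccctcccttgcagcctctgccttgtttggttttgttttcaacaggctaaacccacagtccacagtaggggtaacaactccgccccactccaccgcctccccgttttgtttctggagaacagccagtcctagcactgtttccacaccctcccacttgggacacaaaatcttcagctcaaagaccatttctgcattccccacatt
Tpmt: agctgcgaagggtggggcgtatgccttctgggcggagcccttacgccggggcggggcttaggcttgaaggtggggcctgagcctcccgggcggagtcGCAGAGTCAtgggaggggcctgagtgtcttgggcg

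The Ugdh stretch held 1 match to each motif, and the shorter lay wholly inside the longer, which reads on the minus strand, at bases 44 to 52 of the stretch. The Tpmt stretch held 1 match to TGACNNNGC, also on the minus strand, at bases 98 to 106. The Ugt2b1 and Sult1a1 stretches held 0 matches, which says only that these letters are not in these windows. Each was cut from a window of 250 bases, of which 212 for Ugdh, 132 for Tpmt and 0 for Sult1e1 lie before the annotated gene start. The rest of these 3 windows lies inside the annotated gene. In the full windows GCGTG was found 1 time for Ugdh, 1 time for Ugt1a6 and 3 times for Tpmt. Of those for Tpmt, 0 lay within the stretch before the gene. TGACNNNGC was found 1 time each for Ugdh and Tpmt. Neither motif was found for Ugt2b1, Ugt2b37, Sult1a1, Sult1b1 or Sult1e1. Whether matches go with the changes of the members was not tested, and Sult1a1 and Tpmt were picked for display by their matches. Over the 33469 RefSeq windows of 250 bases, likewise not cut at annotated gene starts, 25.9% held GCGTG and 10.1% held TGACNNNGC. A match is a run of letters and was not tested as a binding site.

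The sulfotransferase members did not pass the test. Sult1b1 encodes the sulfotransferase known for thyroid hormones and small phenols. Its signal was 5793, 6149, 6074, 5790 and 5793 in RG3487 livers 1 to 5, against 5594, 5152, 5488, 5759 and 5247 in vehicle livers 1 to 5. Every RG3487 liver was above every vehicle liver, by 31 signal units at the closest. The mean was 5920 ± 177 with RG3487 and 5448 ± 249 with vehicle (SD, n = 5 each), a log2 change of 0.12 ± 0.04 SE that lay near the threshold (limma adjusted p = 0.0561, exact permutation p = 0.00794). It passed after quantile normalization (0.28, limma adjusted p = 0.000848) and with scaling to the hybridization controls (0.31, adjusted p = 0.000234). When arrays were centred on their median, the change was 0.042 (adjusted p = 0.601), and the adjusted p was 0.121 with the replicate number as a block and 0.141 without a variance trend. The groups did not overlap for Ugdh and Sult1b1, 2 of the 6 members, against 18.4% of all probe sets.

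Sult1a1 encodes the main phenol sulfotransferase. Its signal was 5324, 5346, 6260, 4280 and 5143 in RG3487 livers 1 to 5, against 5359, 5573, 5266, 5108 and 6452 in vehicle livers 1 to 5. The groups overlapped, with the highest values in RG3487 liver 3 and vehicle liver 5. The log2 change was -0.08 ± 0.09 SE, with a 95% interval of -0.28 to 0.12 (limma adjusted p = 0.540, exact permutation p = 0.421).

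Sult1e1 encodes oestrogen sulfotransferase, which inactivates oestradiol. Its signal was 6084, 6970, 7734, 5939 and 5992 in RG3487 livers 1 to 5, against 6553, 7604, 6587, 5663 and 8530 in vehicle livers 1 to 5. The groups overlapped, and RG3487 liver 3 and vehicle liver 5 were again the highest of their groups. The log2 change was -0.09 ± 0.11 SE, with a 95% interval of -0.32 to 0.14 (limma adjusted p = 0.563, exact permutation p = 0.476).

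Tpmt, the thiol methyltransferase, had a signal of 420, 505, 545, 453 and 466 in RG3487 livers 1 to 5, against 446, 528, 482, 547 and 479 in vehicle livers 1 to 5. The groups covered nearly the same range. The log2 change was -0.06 ± 0.08 SE, with a 95% interval of -0.23 to 0.12 (limma adjusted p = 0.638, exact permutation p = 0.484). The sign of the Sult1a1 and Sult1e1 changes turned positive with quantile normalization and with scaling to the hybridization controls, and that of Tpmt with scaling to the hybridization controls, so no direction is given for these members.

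Whether members differed from each other in their change was tested on the log2 ratio of 2 members within each liver, for all 15 pairs. By the exact permutation test 8 pairs had an unadjusted p under 0.05, all of them Ugt2b1 or Ugdh against a sulfotransferase or Tpmt, and 0 passed after Benjamini-Hochberg adjustment over the pairs. The smallest unadjusted exact permutation p was 0.0238, for Ugt2b1 against Tpmt, whose changes differed by 1.12 (adjusted p = 0.085). Ugt2b1 and Ugdh differed by 0.56 (exact permutation p = 0.119, adjusted p = 0.162), with Ugt2b1 the larger. Sult1a1 and Sult1e1 differed by 0.01 (exact permutation p = 0.905), and their log2 ratio had an SD of 0.12 in both groups (n = 5 each).

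**Figure D2:**
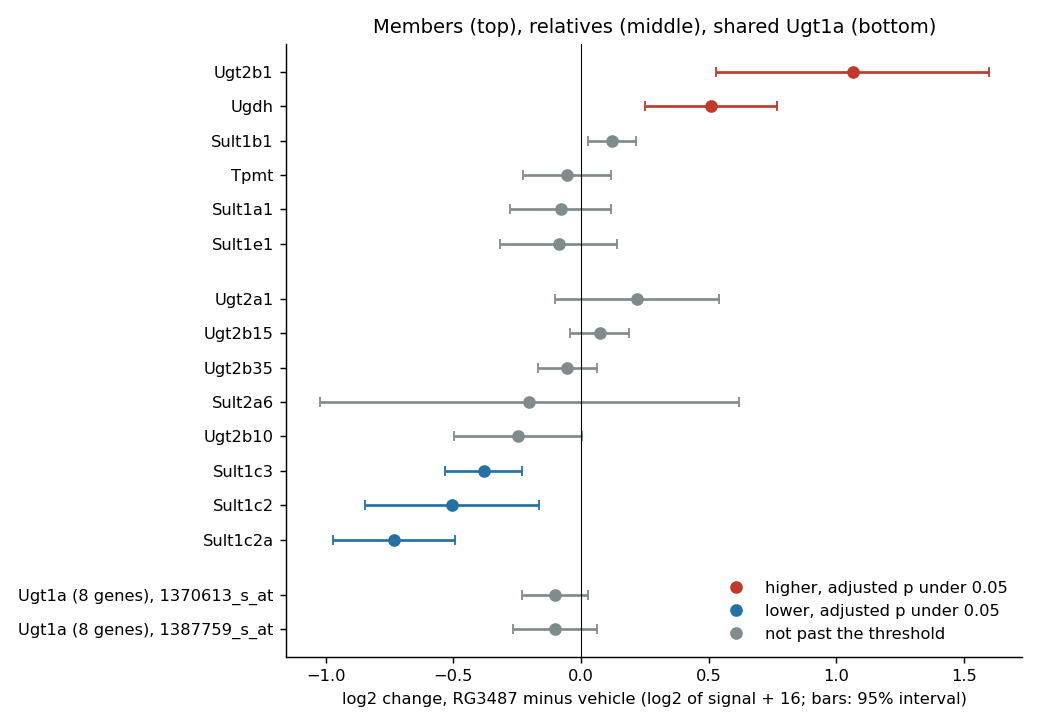
Log2 change (RG3487 minus vehicle, horizontal axis) with its 95% interval for the 6 members, for UGT and sulfotransferase relatives and for the 2 probe sets shared by 8 Ugt1a genes. Red points rose and blue points fell at an adjusted p under 0.05; Ugt2b1 at 1.06 and Ugdh at 0.51 are the red ones, and 3 Sult1c genes are the blue ones. Ugt2b is not drawn, as its SE was 1.71. Ugt2b7 and Sult2a2 are not drawn either, as they were below the filter. In the fit without a filter Ugt2b7 changed by 1.43.

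The Ugt1a genes share all exons but the first, and Ugt1a6, a phenol-glucuronidating form, could not be separated from its relatives. The brighter shared probe set had signals of 3981 ± 317 with RG3487 and 4267 ± 210 with vehicle (SD, n = 5 each; log2 change -0.10 ± 0.06 SE, limma adjusted p = 0.215). The dimmer one averaged 2962 ± 346 with RG3487 and 3169 ± 198 with vehicle (log2 change -0.10 ± 0.08 SE, adjusted p = 0.332). The groups overlapped in both. These values are for the Ugt1a genes together, and a change in 1 form could be hidden in them.

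Of 20 listed UGT relatives, 6 had a probe set of their own and 5 passed the filter on dim signals, of which 0 passed limma's test and 0 had an unadjusted p under 0.05. All those of the 2B kind lie near Ugt2b1 on chromosome 14, and they are close paralogs, so signal shared between their probe sets was not tested. Ugt2b10 had the smallest p, and averaged 787 ± 42 with RG3487 and 950 ± 185 with vehicle (SD, n = 5 each; log2 change -0.25 ± 0.12 SE, adjusted p = 0.128). Without vehicle liver 3, 1 of the 5 relatives was called lower. Ugt2a1, a form known from olfactory epithelium, changed by 0.22 ± 0.15 SE (adjusted p = 0.292), and was called higher with scaling to the hybridization controls (adjusted p = 0.0353). Ugt2b15 and Ugt2b35, named after their values were seen, changed by 0.07 ± 0.05 and -0.05 ± 0.05 SE (adjusted p = 0.323 and 0.478). Ugt2b15 was called higher after quantile normalization (adjusted p = 0.0439) and with scaling to the hybridization controls (adjusted p = 0.00149). Ugt2b35 was called with scaling to the controls, with its sign turned (0.14, adjusted p = 0.0312).

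Ugt2b7, also named after its values were seen, was too dim to pass the filter. Its signal was 42, 50, 26, 56 and 60 in RG3487 livers 1 to 5, against 8, 11, 2, 9 and 5 in vehicle livers 1 to 5. The groups did not overlap, and RG3487 liver 3 was again the lowest of its group, as for Ugt2b1. In the fit without a filter its log2 change was 1.43 ± 0.17 SE (limma adjusted p = 0.000175).

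Ugt2b, formerly Ugt2b2, encodes the UGT that glucuronidates androsterone, and Wistar rats with an inherited loss of this activity through a deletion in the gene are known. Its brighter probe set had a signal of 4903, 4750, 15, 4820 and 4577 in RG3487 livers 1 to 5, against 5361, 5162, 5613, 5477 and 9 in vehicle livers 1 to 5. The dimmer one had 545, 499, 4, 490 and 511 in RG3487 livers and 667, 488, 1032, 655 and 0 in vehicle livers. RG3487 liver 3 and vehicle liver 5 were thus near 0 in both probe sets while the other 8 livers were not. The genotype of the animals is not given in the labels. With 1 such liver in each group, the log2 change of the brighter probe set was -0.08 ± 1.71 SE (adjusted p = 0.977) and was not informative. When both livers were left out, an alternative chosen after the values were seen, Ugt2b1 changed by 1.44 (limma adjusted p = 8.31e-05) and Ugdh by 0.49 (adjusted p = 0.000846).

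**Figure D3:**
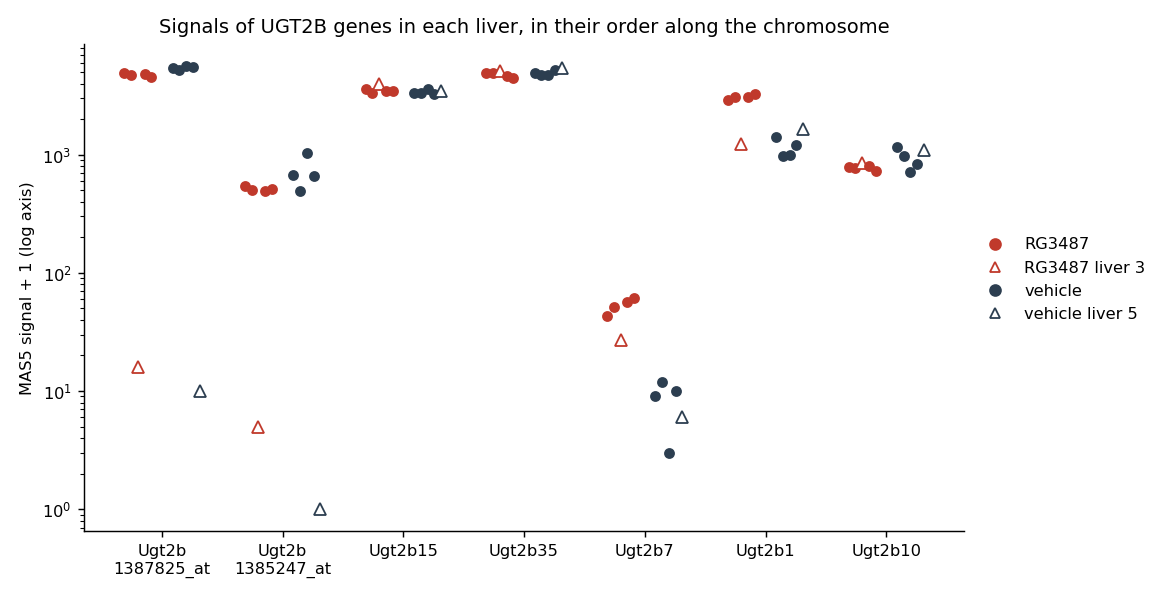
MAS5 signal + 1 (log axis) of UGT2B genes in each liver, RG3487 in red to the left and vehicle in dark to the right, in gene order along chromosome 14. Open triangles are RG3487 liver 3 and vehicle liver 5, at 15 and 9 for the brighter Ugt2b probe set. For Ugt2b1 the RG3487 liver 3 triangle lies at 1233, below its group, and the vehicle liver 5 triangle at 1659, the highest of its group.

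The rest of the conjugation pathway was described from lists of 103 other genes, of which 69 had a probe set of their own and 62 passed the filter. Among these, 13 rose and 9 fell, or 21% and 14.5%, a total of 35.5%, against 22.3%, 7.4% and 29.7% of all 7727 genes tested. Without the 9 target genes of the Ah receptor and NRF2, which were listed with earlier results known, 8 of 53 rose and 9 fell, or 15.1% and 17%. The split depended on the scaling, with 13 higher and 13 lower of the 62 after quantile normalization, 10 and 13 when arrays were centred on their median, and 24 and 7 with scaling to the hybridization controls. The median change of all genes was 0.09 on the log2 scale. The plot of changes by list sets each gene against it.

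**Figure D4:**
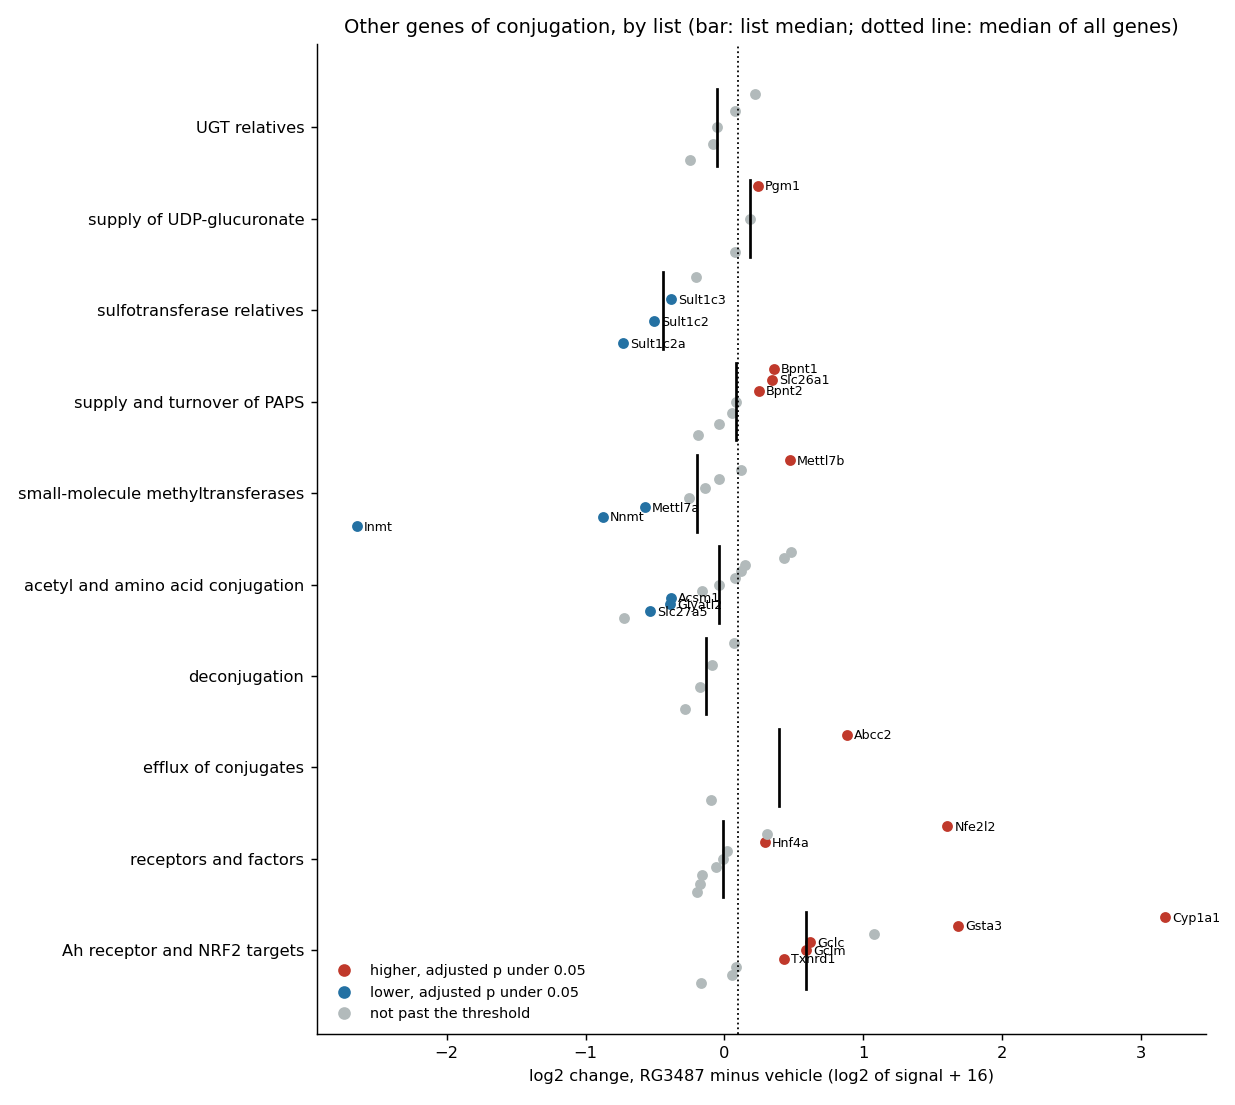
Log2 change (RG3487 minus vehicle, horizontal axis) of 62 genes in 10 lists, with a bar at each list's median and a dotted line at 0.09, the median of all genes. Genes past the threshold are coloured and named; those of the SULT1C kind, Inmt and Nnmt lie to the left, and Nfe2l2, Gsta3 and Cyp1a1 to the right.

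Of the sulfotransferase relatives, 3 of 4 tested fell and 0 rose (median -0.44), all of them SULT1C genes, whose products sulfate phenols and N-hydroxyarylamines. Sult1c2a had signals of 753, 676, 699, 721 and 558 in RG3487 livers 1 to 5, against 1041, 1037, 1220, 984 and 1460 in vehicle livers 1 to 5. Every RG3487 liver was below every vehicle liver (log2 change -0.73 ± 0.11 SE, limma adjusted p = 0.000759). Sult1c3 averaged 3153 ± 314 with RG3487 and 4098 ± 198 with vehicle (SD, n = 5 each), also without overlap, a log2 change of -0.38 ± 0.07 SE (limma adjusted p = 0.00217). Sult1c2 changed by -0.51 ± 0.16 SE (adjusted p = 0.0316) with overlapping groups, and its call ended with scaling to the hybridization controls (adjusted p = 0.0854) and without RG3487 liver 2, 4 or 5 or vehicle liver 2, 3 or 5 (adjusted p = 0.0559 to 0.074). Sult1c2 and Sult1c2a are close copies, so signal shared between their probe sets was not tested. Sult2a6, a hydroxysteroid sulfotransferase, ranged from 317 to 1505 in RG3487 livers and from 575 to 1501 in vehicle livers and did not pass (-0.20 ± 0.38 SE, adjusted p = 0.723).

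Genes that supply or recycle PAPS rose in 3 of 7 and fell in 0 (median 0.08). After quantile normalization and when arrays were centred, 2 were higher and 1 lower. With the replicate number as a block, and without vehicle liver 5 or RG3487 liver 1, 3 were higher and 1 lower. Bpnt1, which clears the by-product PAP in the cytosol, rose by 0.35 ± 0.07 SE (limma adjusted p = 0.00252), and its signal was 455 to 530 in RG3487 livers and 347 to 401 in vehicle livers. Slc26a1, a sulfate transporter, rose by 0.34 ± 0.08 SE (adjusted p = 0.00985). Bpnt2, a Golgi phosphatase for PAP, rose by 0.25 ± 0.08 SE (adjusted p = 0.0348), but not after quantile normalization (adjusted p = 0.156), when arrays were centred (adjusted p = 0.145), or without RG3487 liver 2, 4 or 5 or vehicle liver 1, 2, 3 or 4 (adjusted p = 0.0552 to 0.085). The PAPS synthases did not pass in the main fit, where Papss2 had the lowest adjusted p of the list's genes with a negative change. Papss2 changed by -0.19 ± 0.07 SE (adjusted p = 0.0708) and Papss1 by 0.08 ± 0.11 SE (adjusted p = 0.605), both named after their values were seen.

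In the supply of UDP-glucuronate besides Ugdh, 1 of 3 rose and 0 fell (median 0.18). Pgm1, which makes glucose-1-phosphate, rose by 0.24 ± 0.07 SE (limma adjusted p = 0.0282), but not when arrays were centred (adjusted p = 0.15), after quantile normalization (adjusted p = 0.119), or without RG3487 liver 2, 4 or 5 or vehicle liver 1, 3 or 4 (adjusted p = 0.051 to 0.0699). Ugp2, which makes UDP-glucose and was named after its value was seen, averaged 3359 ± 441 with RG3487 and 3196 ± 450 with vehicle (SD, n = 5 each), a change of 0.07 ± 0.11 SE (adjusted p = 0.635).

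Of small-molecule methyltransferases other than Tpmt, 1 of 8 rose and 3 fell (median -0.20). The number lower was 4 when arrays were centred, with array weights and without RG3487 liver 3. With scaling to the hybridization controls 2 were higher and 3 lower. Nnmt, which methylates nicotinamide, had signals of 515, 565, 1098, 440 and 689 in RG3487 livers 1 to 5, against 1139, 1233, 1261, 1010 and 1199 in vehicle livers 1 to 5. RG3487 liver 3 lay inside the vehicle range and the other RG3487 livers below it (log2 change -0.88 ± 0.19 SE, limma adjusted p = 0.00558). Inmt, an indolethylamine methyltransferase, ranged from 82 to 223 in RG3487 livers and from 482 to 1505 in vehicle livers. The relatives Mettl7a and Mettl7b, thiol methyltransferases in human, went opposite ways, with log2 changes of -0.57 ± 0.08 SE (adjusted p = 0.000691) and 0.47 ± 0.11 SE (adjusted p = 0.00709), and in neither did the groups overlap.

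Acetyl and amino acid conjugation genes fell in 3 of 11 and rose in 0 (median -0.04), but with scaling to the hybridization controls 2 were lower and 4 higher. Slc27a5, the bile acid CoA ligase, changed by -0.54 ± 0.09 SE (limma adjusted p = 0.00161), and Acsm1, a medium-chain acyl-CoA synthetase, by -0.38 ± 0.05 SE (adjusted p = 0.000234). Glyatl2, a glycine acyltransferase relative, changed by -0.39 ± 0.13 SE (adjusted p = 0.0434), but did not pass with scaling to the hybridization controls (adjusted p = 0.182), without a variance trend (adjusted p = 0.0507), or without RG3487 liver 2, 4 or 5 or vehicle liver 1, 2, 4 or 5 (adjusted p = 0.0626 to 0.102). Of 4 deconjugating enzymes 0 passed limma's test and 1 had an unadjusted p under 0.05. Gusb, the beta-glucuronidase of lysosomes, changed by -0.17 ± 0.08 SE (adjusted p = 0.113), and did pass as lower when arrays were centred (adjusted p = 0.0437) and after quantile normalization (adjusted p = 0.0306). Sts, steroid sulfatase, changed by -0.29 ± 0.18 SE (adjusted p = 0.242). Of 2 efflux pumps for conjugates 1 rose, Abcc2, which exports glucuronides into bile, at 779 to 1194 in RG3487 livers and 486 to 567 in vehicle livers.

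Of 9 receptors and factors known to control conjugation genes, 2 rose and 0 fell (median -0.01). Nfe2l2, which encodes NRF2, had signals of 1929 to 2215 in RG3487 livers and 554 to 795 in vehicle livers, and RG3487 liver 3 lay inside its group there at 1984. Hnf4a, a hepatocyte factor, rose by 0.29 ± 0.06 SE (limma adjusted p = 0.00653). Of 9 target genes of the Ah receptor and NRF2, 5 rose and 0 fell (median 0.59). The number higher was 4 when arrays were centred and without vehicle liver 2, 3, 4 or 5 or RG3487 liver 4 or 5. It was 6 with scaling to the hybridization controls. Cyp1a1 ranged from 173 to 371 in RG3487 livers and from 4 to 25 in vehicle livers, with RG3487 liver 3 at 220. Gclm and Gclc, the subunits of the rate-limiting enzyme of glutathione synthesis, rose by 0.59 ± 0.10 and 0.62 ± 0.13 SE (adjusted p = 0.00174 and 0.0047), and Gsta3, a glutathione transferase, by 1.68 ± 0.25 SE (adjusted p = 0.000708). Those that did not pass, named after their values were seen, were Nqo1 (1.08 ± 0.57 SE, adjusted p = 0.175), Cyp1a2 (0.09, adjusted p = 0.426), Gstp1 (0.06, adjusted p = 0.705) and Hmox1 (-0.17, adjusted p = 0.314). These targets were listed with earlier results known and are given for reference only.

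The genes whose log2 signal followed a member most closely over the 10 livers were found among 7726 genes by Pearson's r, as a description. For Ugt2b1 these were Prkcd (r = 0.973), Slc26a1 (0.964) and Irf2 (0.956). For Ugdh they were Elavl1 (0.977), Zwint (0.967) and Cct3 (0.966). For Sult1b1 they were Vsig10 (0.977), Ndufaf8 (0.975) and mrpl9 (0.921), and for Sult1a1 Mcee (0.919), Dnajc3 (0.913) and Ndrg2 (0.903). The livers fall into 2 treatment groups, so that a gene can rank here by its treatment difference alone.

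Hepatocyte markers were bright in all livers, and 5 of 10 fell and 0 rose (median -0.14), with summed signals of 59477 to 70736 in RG3487 livers and 71733 to 75664 in vehicle livers. The count depended on the scaling, with 7 lower when arrays were centred, 1 lower after quantile normalization, and 1 lower and 1 higher with scaling to the hybridization controls. It depended on single livers and the variance model as well. There were 7 lower without RG3487 liver 3, and 2 lower without vehicle liver 4, without RG3487 liver 2 or 5, or without a variance trend. Of Kupffer cell and macrophage markers 2 of 8 fell (median -0.21, summed signal 2391 to 3042 with RG3487 and 2864 to 3446 with vehicle), and of endothelial markers 2 of 7 fell (median -0.13, summed signal 2751 to 3259 with RG3487 and 3265 to 3709 with vehicle). Stellate cell and fibroblast markers rose in 1 of 7 and fell in 1 (1662 to 1925 with RG3487 and 1516 to 1955 with vehicle). These counts also depended on the scaling. Lower Kupffer cell markers numbered 3 when arrays were centred, 4 after quantile normalization and 1 with scaling to the hybridization controls. In the same order, endothelial markers gave 3, 2 and 0 lower. Stellate markers gave 0 higher and 2 lower when centred or after quantile normalization, and 3 higher and 1 lower with control scaling. Over all genes as deposited 22.3% rose and 7.4% fell. Of 2 bile duct markers tested 1 rose, Krt18, which hepatocytes also express, while Krt19 was below the filter at 15 to 29 in RG3487 livers and 5 to 20 in vehicle livers. Of 2 lymphocyte markers 0 passed and 1 had an unadjusted p under 0.05 (summed signal 96 to 142 with RG3487 and 117 to 153 with vehicle). Their part in the changes of the members was not tested.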

How the data were processed

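Liver RNA of 10 rats was hybridised to Affymetrix rat arrays, 1 array per animal, from 1 ug of RNA labelled with biotin per the labels' protocols. The deposited values are signal intensities per probe set on a linear scale, made with MAS5 per the submitters' processing notes, whose version and scaling target are unknown here. Arrays have no read depth, and their number limits the precision. Groups and replicate numbers came from the sample titles.

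Of 15899 probe sets, 40 are controls, and 12562 of the others carry 1 gene in the platform annotation, 332 several and 2965 none. Symbols were updated through Entrez identifiers or accessions in RefSeq, and 1 changed. Signals were analysed as log2(signal + 16), which understates the fold of dim genes. Controls and the dimmest 25% were dropped, and 11894 probe sets remained. RG3487 and vehicle were compared with limma 3.58.1 in R 4.3.3 (lmFit, eBayes with trend, two-sided), with Benjamini-Hochberg adjustment over all 11894. A gene outside the members was represented by its probe set with the highest mean. Single values also got an exact permutation test, two-sided, over 252 regroupings of the 10 animals. P-values measure the spread between animals. As cage sharing is not given, a difference between cages could not be told apart from one of treatment.

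The members, lists and alternatives were chosen with earlier results of these data known. Genes named are all members, up to 4 genes past the threshold per list (up to 2 others where none passed), the 3 genes most like each of 4 members, and those said to be named after their values were seen. The test between members and the alternative without 2 livers were added after the values were seen. Alternatives covered the pseudocount, array scaling, filter, variance model, array weights, replicate number and each liver left out. On simulated data for this comparison over 11894 probe sets, 32.6% of probe sets changed 1.25-fold, 78.2% of those changed 1.5-fold and 94.8% of those changed 2-fold were recovered. There only a small share of probe sets was changed, with independent noise, whereas 27.7% were called in the data. Recovery in the data may therefore differ.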

Additional observations from a re-analysis of the deposited data

Results flagged for a closer look

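In each group of 5 livers the value farthest out was compared with the range of the group by Dixon's ratio at its 95% critical value. This was done for the members and the genes of the pathway lists, 136 groups in all, and 14 groups held such a value. Chance flags about 1 in 20 groups.

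Among the members, RG3487 liver 3 had a Ugt2b1 signal of 1233, where the other RG3487 livers had 2908 to 3286. Vehicle liver 5 had a Ugdh signal of 1087, where the other vehicle livers had 1475 to 1575. The same livers were the far ones for Ugt2b, RG3487 liver 3 at 15 against 4577 to 4903 and vehicle liver 5 at 9 against 5162 to 5613. RG3487 liver 3 was also the far one, on the high side, for Ugt2a1 (162 against 86 to 93), Abcg2 (100 against 41 to 55) and Acsm2 (117 against 54 to 69), and vehicle liver 5 for Gnmt (5322 against 3882 to 4131).

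Other livers stood apart in single genes. Hnf4a was 2545 in RG3487 liver 2 against 2840 to 2950, and Nat2 was 39 in RG3487 liver 5 against 49 to 53. In the vehicle group, Acsm3 was 749 in liver 1 against 302 to 362, and Stat5b was 52 in liver 1 against 38 to 42. Mettl7b was 1129 in vehicle liver 3 against 1573 to 1680, and Gusb was 350 in vehicle liver 4 against 273 to 290.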

How the results depend on the processing

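The alternatives were 11 other settings and the 10 settings that leave out 1 liver each, with 1 more, without both livers low in Ugt2b, chosen after seeing the data. The Ugt2b1 and Ugdh changes passed and were positive under all 22, with ranges of 0.98 to 1.44 and 0.41 to 0.70. Sult1b1 changed by 0.12 and passed with quantile normalization (0.28), scaling to the hybridization controls (0.31), the dimmest 50% left out (0.12) and without vehicle liver 4 (0.14), and the settings that leave out 1 liver gave 0.10 to 0.14. It was 0.042 when arrays were centred on their median (adjusted p = 0.601), and its adjusted p over the 22 ran from 0.000234 to 0.601. The sign of Sult1a1 turned with quantile normalization (0.073) and with scaling to the controls (0.11), as did that of Sult1e1 (0.086 and 0.11), and that of Tpmt turned with scaling to the controls (0.13), none of them past the threshold. The cause was not tested. That scaling assumes equal amounts of control in all samples, for which no label speaks. The mean log2 control signal was 9.67 to 9.74 in RG3487 arrays and 9.85 to 9.94 in vehicle arrays. The highest signal per array was 9113 to 10252 in RG3487 arrays and 10418 to 11392 in vehicle arrays. Scaling to the controls moved the median change of all probe sets to 0.25, against 0.08 as deposited, and the probe sets called to 6536, against 3295. The members called numbered 2 or 3 and the pathway genes called 17 to 31 under all 22, with 13 higher and 9 lower as deposited and 24 and 7, 13 and 13, and 10 and 13 with scaling to the controls, quantile normalization and centred arrays. With the replicate number as a block, 2918 probe sets and the same number of members, 2, were called. Deviations of livers with the same number correlated at -0.01 to 0.14, so the numbers were not taken to pair them.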

Other observations

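RG3487 liver 3 and vehicle liver 5, the livers near 0 in Ugt2b, were compared with the other 8 livers over 15859 probe sets, after their values had been seen. Both lay below the lowest of the other 8 divided by 3 in 3 probe sets, and above 3 times the highest in 0. Of the 3, a pair were those of Ugt2b. The third was annotated to the beta-globin genes Hbbl1 and Hbb-bs, with 132 in RG3487 liver 3 and 102 in vehicle liver 5, where the other RG3487 livers had 748 to 1716 and the other vehicle livers 1325 to 1704. Variants of the beta-globin cluster among rat strains are known, and genotypes are not given in the labels. No relation between these signals and the response of Ugt2b1 to RG3487 was tested, as each group held 1 such liver.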
